A study of Mus musculus with 4 samples.

Results

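In HIF-1alpha knockout osteosarcoma tumours of the mouse, 89 genes set the line c11 apart from both other knockout lines, c15 and c22. They were chosen in 3 steps. Read counts were divided by the total of their library to give CPM (counts per 1000000 counts of the library), and genes with a mean of at least 5 CPM over the 3 knockout libraries were kept, which left 11278 of the 55487 genes. A gene was taken where log2(CPM + 0.5) in c11 lay at least 4-fold, which is 2 on the log2 scale, from c15 and from c22 in the same direction. This gave 66 genes higher in c11 (0.585% of the 11278) and 23 lower in c11 (0.204%). The levels in c11, c15 and c22 chose the genes, so they are given as a description. Each line is 1 library, so no difference between lines has a replicate check and no p-value is given.

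The tumours came from AXT cells, a mouse osteosarcoma line made with the MYC oncogene in bone marrow stromal cells that lack Ink4a/Arf. Mock AXT cells, labelled wild type for HIF-1alpha, and HIF-1alpha knockout cells were placed in matrigel in C57BL/6scid mice, which lack T and B cells, and the tumours were taken 1 day later. The labels name 1 mock sample and 3 knockout samples, AXT1-1, AXT1-2 and AXT2, and do not say which of these is c11, c15 or c22, whether a line is 1 clone, or how many mice were used. Whole tumours were used for poly(A) RNA, so every library holds RNA of the injected cells and of host cells, and fewer cells of a type cannot be told apart from less RNA per cell.

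HIF-1alpha, encoded by Hif1a, is the oxygen-regulated subunit of a transcription factor that turns on glycolysis, blood vessel growth factors and other genes of low oxygen. Osteosarcoma cells make bone-like matrix and can carry programmes of bone, cartilage and their common mesenchymal progenitors. Sox9 drives cartilage, Runx2, Sp7 and Dlx5 drive bone, and collagens, secreted guidance proteins and WNT ligands shape the tissue around such cells.

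Library totals were 12383719 counts for mock and 12910058, 13193264 and 13081007 for c11, c15 and c22. A count of 0 allows up to 3 counts, which is 0.227 to 0.242 CPM by library. Hif1a itself was at 107 CPM in mock and 104 in c11, with 98.7 in c15 and 22.3 in c22. Only c22 was low, and c11 stood beside mock and c15, with a ratio of c11 to c15 of 1.05 (95% counting interval 0.975 to 1.14). No source used here gives the edited position of Hif1a, and a count over the whole gene does not show a small edit, so this level is no check of what c11 and c15 are. Pgk1, a glycolytic kinase, was at 2207 CPM in mock and 482 in c11, with 681 in c15 and 505 in c22. Ldha, a lactate dehydrogenase chain, was at 3867 CPM in mock and 675 in c11, with 1602 in c15 and 848 in c22. Both were lower in all 3 knockout libraries than in mock. Between libraries, c11 and c15 differed by at least 4-fold in 324 genes, c11 and c22 in 244, and c15 and c22 in 381. Osteoblast transcription factors were present in every library, Runx2 at 245 CPM in mock and 133 in c11, with 139 in c15 and 116 in c22. Sp7 was at 177 CPM in mock and 65.6 in c11, with 144 in c15 and 76.2 in c22.

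The same rule was applied to the other knockout lines to place these counts. Line c15 lay alone above both others in 59 genes (0.523%) and below both in 104 (0.922%). Line c22 lay alone above in 27 genes (0.239%) and below in 74 (0.656%). The 89 genes of c11 compare with 163 of c15 and 101 of c22, so c11 did not have the largest number, but it had the largest number on the higher side. With 2-fold in place of 4-fold, c11 lay above both others in 185 genes (1.64%) and below both in 142 (1.26%).

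**Figure D1:**
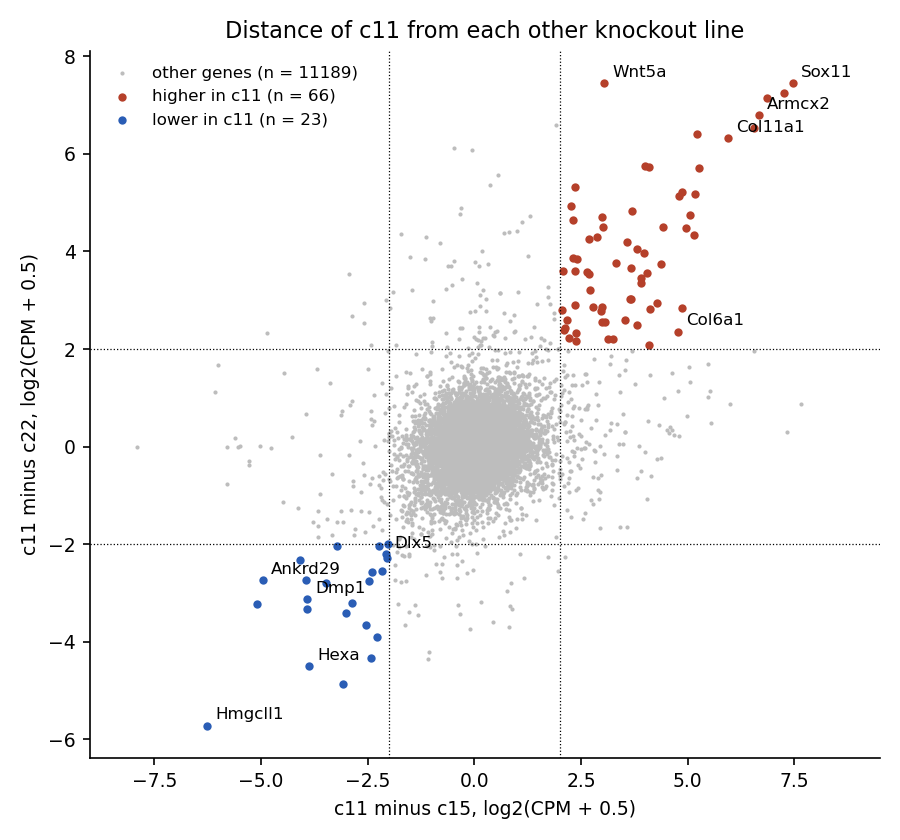
Each point is 1 of the 11278 genes; the x axis is c11 minus c15 and the y axis c11 minus c22, both as differences of log2(CPM + 0.5), and dotted lines mark 4-fold. The 66 genes higher in c11 (red) lie in the upper right corner up to Sox11 at 7.46, and the 23 lower (blue) in the lower left corner down to Hmgcll1 at -5.73.

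Each member below has a level in CPM in every library, and a distance, the smaller of the log2 differences of c11 from c15 and from c22. For the higher genes the distance ran from 2.05 to 7.46 with a median of 2.91, and 31 of the 66 lay past 8-fold and 16 past 16-fold. For the lower genes it ran from -2.01 to -5.73 with a median of -2.54, with 6 of the 23 past 8-fold and 1 past 16-fold. Adding 0.5 CPM draws low genes together, so the distance understates differences that involve values near 0. Intervals and the 3-count limit cover counting error only, not variation between tumours.

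Collagen chains, the fibre and sheet proteins of the matrix, gave 5 of the members. Of the 20 collagen chains with a mean of at least 5 CPM, 5 were higher in c11 and none lower. Their median difference of c11 from the mean of c15 and c22 was 0.82, against 0.05 over all genes. The shares over all kept genes, which apply to every list below, were 0.585% higher and 0.204% lower. At 2-fold they were 1.64% and 1.26%. Col6a1, a chain of the microfibrillar collagen around cells, was at 10.8 CPM in mock and 266 in c11, with 9.32 in c15 and 51.5 in c22. Its level in c11 was 28.5 times that of c15 (95% interval 23.8 to 34.4) and 5.16 times that of c22 (95% interval 4.75 to 5.62). Its partner chain Col6a2 lies on the same strand of chromosome 10, 85162 bases away, and was at 10.4 CPM in mock and 157 in c11, with 7.66 in c15 and 20.1 in c22. Mock was low for both chains, near c15, while c22 lay between c15 and c11. A further chain of that collagen, Col6a3, missed the 4-fold mark at 48.3 CPM in c11, against 15.2 in c15, 10.2 in c22 and 52.6 in mock, so mock was as high as c11.

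Col11a1, a chain of the fibrils of cartilage, was at 0.323 CPM in mock and 39.7 in c11, with 0.152 in c15 and 0 in c22. Only c11 held more than 1 CPM, and the level there was at least 173 times that of c22. Col4a1 and Col4a2 are the chains of the basement membrane sheet. Col4a1 (chr8:11198423-11312826, minus strand, GRCm38) was at 11.9 CPM in mock and 113 in c11, with 6.67 in c15 and 1.61 in c22. Col4a2 (chr8:11312805-11449287, plus strand) was at 9.69 CPM in mock and 79.3 in c11, with 4.17 in c15 and 0.994 in c22. In both, c22 was lowest, mock and c15 were below 12 CPM and c11 stood far above, with distances of 3.99 and 4.10. These genes start head to head and their annotated ends overlap. The RefSeq promoter windows (GRCm38.p6, 250 bases before to 50 after the start) show this; they are printed because 1 stretch of DNA holds both starts, with the 78 bases that the windows share, chr8:11312777-11312854, in capitals, each 5′ to 3′ on its own strand.
Col4a1 promoter (chr8:11312777-11313076, minus strand): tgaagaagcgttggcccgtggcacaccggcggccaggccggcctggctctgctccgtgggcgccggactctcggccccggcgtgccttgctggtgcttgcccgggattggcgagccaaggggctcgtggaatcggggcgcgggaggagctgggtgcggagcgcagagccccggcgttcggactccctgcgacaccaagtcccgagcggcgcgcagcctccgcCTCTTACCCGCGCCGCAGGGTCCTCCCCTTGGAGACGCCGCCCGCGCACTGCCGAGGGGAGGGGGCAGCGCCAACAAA
Col4a2 promoter (chr8:11312555-11312854, plus strand): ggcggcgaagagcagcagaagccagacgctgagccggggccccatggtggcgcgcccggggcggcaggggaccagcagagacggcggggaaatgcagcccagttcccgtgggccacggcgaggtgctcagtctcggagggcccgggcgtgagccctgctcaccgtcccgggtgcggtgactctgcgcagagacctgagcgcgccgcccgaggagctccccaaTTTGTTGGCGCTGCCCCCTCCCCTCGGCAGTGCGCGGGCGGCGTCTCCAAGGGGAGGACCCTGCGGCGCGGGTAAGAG
The capitals of one are the reverse complement of those of the other.

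The other collagens were within 4-fold of at least 1 line. Col5a1, a chain of fibrils, was at 286 CPM in mock and 772 in c11, with 192 in c15 and 467 in c22. Col12a1, a fibril-associated chain, was at 117 CPM in mock and 134 in c11, with 20.8 in c15 and 74.0 in c22. Col7a1, of anchoring fibrils, was at 4.85 CPM in mock and 16.1 in c11, with 14.3 in c15 and 10.5 in c22. These were also highest in c11 among all 4 libraries. Col1a1, the main chain of bone collagen, was at 862 CPM in mock and 1913 in c11, with 1093 in c15 and 4699.9 in c22. Col3a1, of soft connective tissue, was at 292 CPM in mock and 976 in c11, with 137 in c15 and 1216 in c22. For both, c22 was highest and c11 stood between the other knockout lines. Col1a2 was at 2292 CPM in mock and 1082 in c11, with 1627 in c15 and 3398 in c22. Col14a1 was at 14.9 CPM in mock and 3.18 in c11, with 12.4 in c15 and 4.59 in c22. Col8a1 was at 5.41 CPM in mock and 4.80 in c11, with 6.82 in c15 and 9.94 in c22. These chains were lowest in c11, but 0 chains were at least 2-fold lower there than in both others. Col4a6, another basement membrane chain, was at 0.0808 CPM in mock and 0 in c11, with 22.97 in c15 and 0 in c22, so it was high in c15 alone.

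Further matrix members sat with the collagens. Mmp2, a gelatinase that cuts denatured collagen and basement membrane, was at 15.7 CPM in mock and 91.9 in c11, with 13.8 in c15 and 7.42 in c22, and it was the 1 member among 23 matrix proteases and their inhibitors, of which 4 were at least 2-fold higher in c11. Among these, Mmp11 was at 198 CPM in c11, against 47.8 in c15, 82.0 in c22 and 20.8 in mock. Abi3bp, a matrix protein, was at 2.99 CPM in mock and 39.5 in c11, with 2.65 in c15 and 4.43 in c22. Hmcn1, an extracellular protein that links tissues at basement membranes, was at 4.52 CPM in mock and 25.1 in c11, with 1.21 in c15 and 1.99 in c22. In each of these, c11 was the highest of the 4 libraries and mock was nearer the other knockout lines. Mamdc2, a secreted MAM-domain protein, was at 0.242 CPM in mock and 19.05 in c11, with 3.41 in c15 and 0.841 in c22. The mock value is 3 counts. By the gene annotation deposited with the counts, with terms picked after values were seen, 15 of the 66 higher genes (22.7%) carried "extracellular region", against 309 of 11278 (2.74%). "Extracellular matrix" was carried by 7 of 66 (10.6%), against 81 (0.718%).

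Host stroma also makes collagens and Mmp2, so its markers were read beside them. The summed level of 11 fibroblast markers was 432 CPM in mock and 118 in c11, with 333 in c15 and 294 in c22. Among the knockout lines, 10 of the 11 were lowest in c11. Gsn was the largest part of the sum, at 252 CPM in mock and 78.9 in c11, with 186 in c15 and 174 in c22. Pdgfra was at 63.8 CPM in c22, against 5.42 in c11, 6.97 in c15 and 15.2 in mock. Whether the injected cells also make these markers was not tested. The part of host stroma in these matrix genes was not tested. The sum of 10 endothelial markers was 17.0 CPM in mock and 14.9 in c11, with 11.2 in c15 and 8.56 in c22. It was thus highest in c11 among the knockout lines, but it rests on Egfl7. That gene was at 12.4 CPM in mock and 13.01 in c11, with 8.79 in c15 and 6.96 in c22. Among the knockout lines, 3 of the 10 (Tek, Pecam1 and Cdh5) were lowest in c11, while Vwf and Kdr were highest there. No count was found for 6 of the 10 in c11 (Pecam1, Cdh5, Tie1, Esam, Cldn5 and Emcn), for 4 in c15 and for 4 in c22.

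Transcription factors of the embryo held the largest distance. Sox11, a SOX factor of neural and mesenchymal progenitors, was at 1.53 CPM in mock and 87.4 in c11, with 0 in c15 and 0 in c22. It had 1128 counts in c11 (95% exact binomial interval 82.3 to 92.6 CPM) and none in c15 or c22. Line c11 was thus at least 384-fold higher than c15 and at least 381-fold higher than c22. Mock, past 4-fold above both other lines, was far below c11. Its RefSeq promoter (GRCm38.p6) is printed as that of the farthest member, with a reverse CCAAT box, ATTGG, in capitals.
Sox11 promoter (chr12:27342669-27342968, minus strand): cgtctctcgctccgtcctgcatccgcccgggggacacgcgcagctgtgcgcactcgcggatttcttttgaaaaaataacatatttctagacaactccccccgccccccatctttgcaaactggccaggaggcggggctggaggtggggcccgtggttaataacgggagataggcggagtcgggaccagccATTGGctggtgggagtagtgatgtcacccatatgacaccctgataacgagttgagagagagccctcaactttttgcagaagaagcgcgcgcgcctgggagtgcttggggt
Sox9, the master factor of cartilage, was at 9.45 CPM in mock and 67.7 in c11, with 3.49 in c15 and 15.7 in c22. It too was highest in c11, with c22 next. Of the 4 SOX genes kept, Sox12 was at 143 CPM in mock and 176 in c11, with 50.7 in c15 and 116 in c22. Sox4 was at 87.2 CPM in mock and 174 in c11, with 75.7 in c15 and 86.8 in c22. Both were also highest in c11, but within 2-fold of the nearer line. Of 4 kept chondrocyte genes, Sox9 and Col11a1 were members, and Col11a1 was kept only through its level in c11. Hapln1, which links cartilage proteoglycan, was at 4.80 CPM in c11, against 13.5 in c15, 50.1 in c22 and 73.8 in mock. Col11a2, the remaining kept gene, was at 6.12 CPM in c11, against 3.11 in c15, 65.9 in c22 and 14.2 in mock. Hapln1 was thus lowest in c11, and Col11a2 was highest in c22.

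Meox1, a homeobox factor of somites, was at 1.21 CPM in mock and 17.6 in c11, with 0 in c15 and 0 in c22. It was at least 77.3-fold higher in c11 than in c15 and at least 76.7-fold higher than in c22. Tbx1, a T-box factor of the pharyngeal region and heart, was at 6.06 CPM in mock and 19.8 in c11, with 0.227 in c15 and 0.0764 in c22. Its ratio of c11 to c15 was 86.9 (95% interval 29.4 to 424). For Meox1 mock was low, and for Tbx1 mock lay between c11 and the others. They were the 2 members among the 23 kept genes of the list of homeobox and patterning factors, which does not hold Meis3, Esx1 or Dlx5. In that list Shox2 went the other way. It was at 61.5 CPM in c11, against 199.8 in c15, 167 in c22 and 222 in mock. Vgll3, a cofactor of TEAD factors, was at 3.23 CPM in mock and 55.2 in c11, with 3.03 in c15 and 3.06 in c22. The 3 libraries other than c11 were almost level. Meis3, a TALE homeobox factor, was at 5.49 CPM in mock and 34.1 in c11, with 6.22 in c15 and 4.13 in c22. Esx1, an X-linked homeobox factor of placenta and testis, was at 13.1 CPM in mock and 37.7 in c11, with 5.08 in c15 and 4.74 in c22. Mock was near the other lines for Meis3 and above them for Esx1.

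Further regulators of gene expression were members with smaller distances. Runx1t1, a corepressor, was at 13.1 CPM in c11, against 1.21 in c15, 1.38 in c22 and 0.565 in mock. Nfatc4, a calcium-regulated factor, was at 21.6 CPM in c11, against 0.985 in c15, 1.53 in c22 and 1.86 in mock. Tle4, a Groucho corepressor, was at 26.2 CPM in c11, against 4.62 in c15, 5.43 in c22 and 15.99 in mock. For Runx1t1 and Nfatc4 mock was near the other knockout lines, and for Tle4 it was between. Ppargc1a, a coactivator of mitochondrial genes, was at 34.9 CPM in c11, against 8.03 in c15, 4.59 in c22 and 15.8 in mock. Auts2, a chromatin-associated regulator of neural development, was at 54.1 CPM in c11, against 11.2 in c15, 11.2 in c22 and 37.6 in mock. Mock lay between c11 and the other lines for both. Nol4l, a nucleolar-protein-like gene, was at 17.2 CPM in c11, against 1.74 in c15, 2.52 in c22 and 1.78 in mock. Strbp, an RNA-binding protein of spermatids, was at 74.4 CPM in c11, against 11.5 in c15, 5.81 in c22 and 8.48 in mock.

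Guidance genes, whose secreted ligands and receptors steer axons, vessels and migrating cells, gave 5 members of 36 kept on that list, all higher. At 2-fold, 9 were higher and none lower, and the median was 0.54. Over all kept genes, 0.585% were higher at 4-fold and 1.64% at 2-fold. Slit2, a secreted ligand, was at 8.24 CPM in mock and 28.04 in c11, with 0.303 in c15 and 0.917 in c22. Slit3, its relative, was at 15.6 CPM in mock and 36.2 in c11, with 2.65 in c15 and 5.58 in c22. Robo2, a receptor for SLIT ligands, was at 8.48 CPM in mock and 28.3 in c11, with 0.834 in c15 and 0.764 in c22. In all of these c15 and c22 were low and mock lay between. Robo1, a further receptor, was just outside the rule at 95.8 CPM in c11, against 0.531 in c15, 24.2 in c22 and 42.0 in mock. Line c22 held it and c15 had almost none.

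Epha3, a receptor for ephrins, was at 124 CPM in mock and 229.5 in c11, with 46.2 in c15 and 8.71 in c22, so mock lay between c11 and c15. Nrp1, a receptor shared by semaphorins and VEGF, was at 9.61 CPM in mock and 15.4 in c11, with 3.03 in c15 and 2.14 in c22, a distance of 2.17. Its relative Nrp2 was at 938 CPM in mock and 1491 in c11, with 563 in c15 and 271 in c22, which is past 2-fold from both others. By the deposited annotation 6 of the 66 higher genes (9.09%) carried "axon guidance" (Wnt5a, Nrp1, Notch1, Slit2, Epha3 and Slit3), against 69 of 11278 (0.612%).

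Ligands and modulators of other pathways were members one by one. Wnt5a, a non-canonical WNT ligand, was at 11.5 CPM in mock and 87.0 in c11, with 10.2 in c15 and 0 in c22. It was absent from c22 at this depth, which puts c11 at least 379-fold higher than c22, while against c15 the ratio was 8.56 (95% interval 7.15 to 10.3). Frzb, a secreted WNT antagonist, was at 25.9 CPM in mock and 42.5 in c11, with 5.00 in c15 and 5.81 in c22. Apcdd1, a membrane inhibitor of WNT signalling, was at 11.8 CPM in mock and 28.9 in c11, with 3.49 in c15 and 0.994 in c22. For both inhibitors mock lay between c11 and the other lines. Wnt5a was the 1 member of 19 kept WNT genes on the list, which does not hold Frzb or Apcdd1, and the list's median was 0.19.

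Ptn, the heparin-binding growth factor pleiotrophin, was at 5.89 CPM in mock and 88.5 in c11, with 0.455 in c15 and 0.459 in c22. The ratio of c11 to c15 was 195 (95% interval 89.2 to 532). Cxcl12, the chemokine that holds blood progenitors in marrow, was at 33.1 CPM in mock and 319.8 in c11, with 75.8 in c15 and 25.8 in c22. It is also a product of host stroma, whose summed markers are given above, and the part of host stroma was not tested. Among 26 kept chemokines, cytokines and receptors Cxcl12 was the only member, and the list's median was -0.45.

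Notch1, a receptor that acts after cleavage as a transcription cofactor, was at 6.86 CPM in mock and 43.2 in c11, with 9.63 in c15 and 7.80 in c22. Its ligand Jag1 was at 12.03 CPM in mock and 30.7 in c11, with 10.5 in c15 and 11.8 in c22. Its target Hes1 was at 28.02 CPM in mock and 28.4 in c11, with 7.28 in c15 and 13.5 in c22. Of 9 kept NOTCH genes these 3 were at least 2-fold higher in c11 and none was lower, with a median of 1.43. Over all kept genes, 1.64% were at least 2-fold higher. For Notch1 and Jag1 mock was near the other knockout lines, and for Hes1 mock was level with c11. Among signalling enzymes, Arap2, a GTPase-activating protein, was at 19.21 CPM in c11, against 2.58 in c15, 0.535 in c22 and 2.50 in mock. Hunk, a kinase, was at 15.96 CPM in c11, against 0.455 in c15, 1.83 in c22 and 3.15 in mock. Brsk1, a kinase of neurons, was at 28.7 CPM in c11, against 1.74 in c15, 0.535 in c22 and 10.5 in mock. Mock was with c15 for Arap2, just above both for Hunk and nearer to c11 for Brsk1. Ppp1r14c, an inhibitor of a protein phosphatase, was at 24.1 CPM in c11, against 3.26 in c15, 2.14 in c22 and 5.33 in mock. Kcnip3, a calcium sensor of potassium channels, was at 32.1 CPM in c11, against 1.82 in c15, 1.45 in c22 and 24.3 in mock.

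Cell adhesion genes followed. Pcdh7, a protocadherin, was at 87.7 CPM in mock and 60.3 in c11, with 7.20 in c15 and 1.83 in c22, so mock was above c11. The antisense transcript 4932441J04Rik, which overlaps its start on the opposite strand, was at 28.8 CPM in mock and 19.5 in c11, with 1.97 in c15 and 0.382 in c22, the same order of libraries. Because the sources used here do not give the strand setting of the count, the reads of such a pair cannot be told apart. Pcdhga11, of the clustered gamma protocadherins, was at 1.29 CPM in mock and 21.2 in c11, with 0.152 in c15 and 0.306 in c22, but its exons are shared with other genes of the cluster. These were 2 of 12 kept cadherins and protocadherins. Fat4, a giant cadherin, was past 2-fold at 43.4 CPM in c11, against 0.455 in c15, 19.4 in c22 and 2.34 in mock. Cxadr, the junction protein known as a virus receptor, was at 15.7 CPM in mock and 53.4 in c11, with 3.34 in c15 and 9.10 in c22. Line c11 was highest for both, and mock lay between c15 and c22 for Fat4 and above both for Cxadr. Lgi2, a secreted neuronal protein, was at 34.9 CPM in c11, against 6.44 in c15, 0.382 in c22 and 10.5 in mock. Itm2a, a membrane protein of chondrogenic cells, was at 74.5 CPM in c11, against 1.52 in c15, 0.382 in c22 and 6.54 in mock. Mock lay between c11 and the others for both. Tspan7, a tetraspanin, was at 14.5 CPM in c11, against 0.227 in c15, 0.612 in c22 and 10.9 in mock. Fndc3c1, a fibronectin-domain protein, was at 76.1 CPM in c11, against 0 in c15, 0 in c22 and 18.5 in mock. For Fndc3c1 the 0 counts of c15 and c22 put c11 at least 335-fold and at least 332-fold higher.

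**Figure D2:**
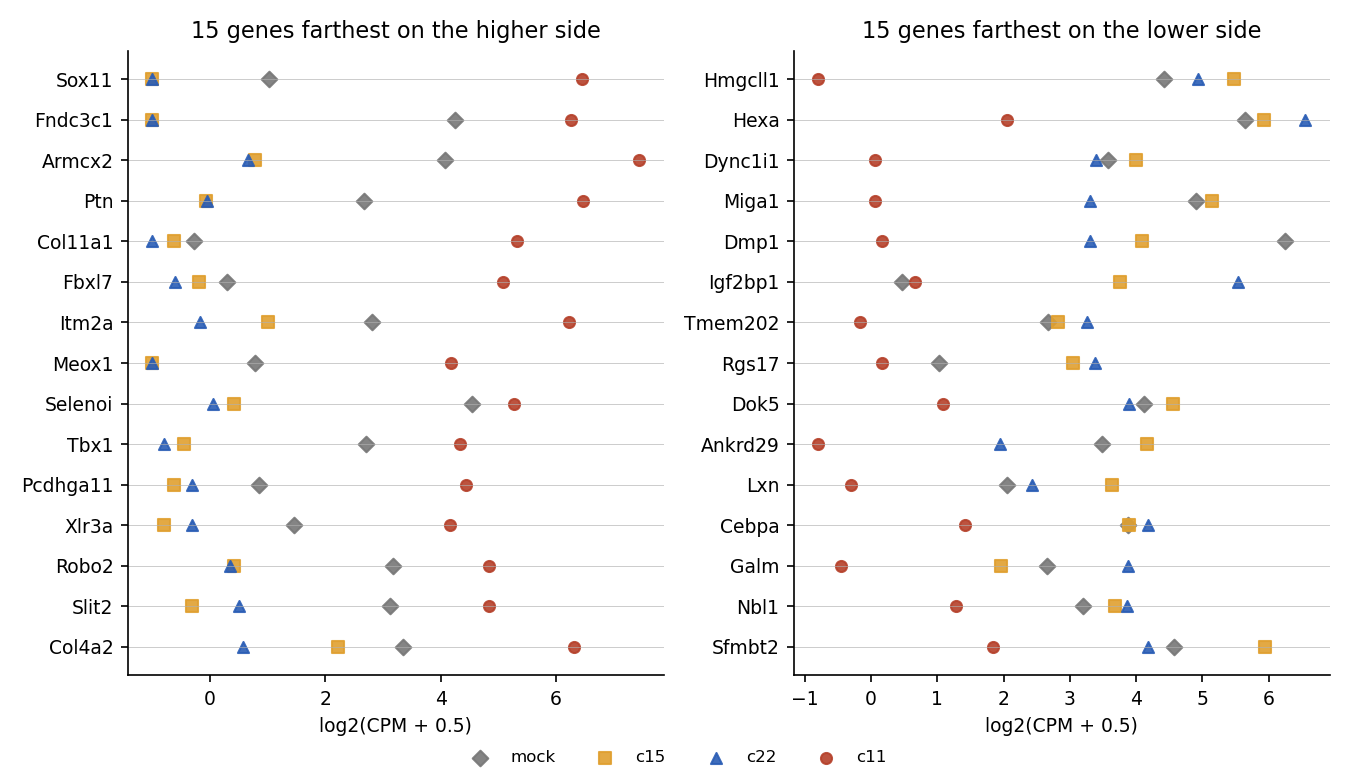
Levels as log2(CPM + 0.5) in mock (diamonds), c11 (circles), c15 (squares) and c22 (triangles) for the 15 farthest members on each side, predicted genes and pseudogenes left out. Circles stand alone at the right in the left panel and, with mock beside c11 for Igf2bp1, at the left in the right panel; mock lies between c11 and the others for Armcx2, Selenoi, Robo2 and Slit2.

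The remaining higher members have mixed roles. Armcx2, an armadillo-repeat protein, was at 16.3 CPM in mock and 174 in c11, with 1.21 in c15 and 1.07 in c22. Fbxl7, an F-box subunit of a ubiquitin ligase, was at 0.727 CPM in mock and 33.5 in c11, with 0.379 in c15 and 0.153 in c22. Selenoi, which makes the phospholipid phosphatidylethanolamine, was at 22.9 CPM in mock and 38.2 in c11, with 0.834 in c15 and 0.535 in c22. For Armcx2 mock lay between, for Fbxl7 it was near the other lines, and for Selenoi it was near c11. Slc7a3, a carrier of cationic amino acids, was at 0.323 CPM in mock and 52.4 in c11, with 10.5 in c15 and 1.22 in c22, so it was the 1 member of 151 kept solute carriers. Gsta4, a glutathione transferase that clears lipid aldehydes, was at 9.21 CPM in mock and 35.0 in c11, with 2.50 in c15 and 1.45 in c22. Cdkn1c, an imprinted inhibitor of cyclin-dependent kinases, was at 2.66 CPM in mock and 15.3 in c11, with 0.455 in c15 and 0.841 in c22. Mock was closer to the other knockout lines than to c11 for Slc7a3 and Cdkn1c, and lay between for Gsta4.

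St6gal1, which adds sialic acid to glycans, was at 24.01 CPM in c11, against 1.97 in c15, 1.30 in c22 and 8.48 in mock. Gramd1b, a sterol carrier at membrane contacts, was at 19.05 CPM in c11, against 1.06 in c15, 1.91 in c22 and 8.24 in mock. Kif26b, an atypical kinesin, was at 68.4 CPM in c11, against 15.2 in c15, 12.3 in c22 and 19.22 in mock. Mock was above both other lines in each of these. Mageh1, of the MAGE family, was at 18.4 CPM in c11, against 0.985 in c15, 0.994 in c22 and 10.01 in mock, and mock was nearer to c11. Nhsl2 was at 57.8 CPM in c11, against 1.52 in c15, 7.64 in c22 and 4.52 in mock, with c15 well under c22. Oaf was at 33.1 CPM in c11, against 5.84 in c15, 1.83 in c22 and 8.80 in mock. Triqk was at 15.3 CPM in c11, against 1.29 in c15, 2.90 in c22 and 0.646 in mock. Mock was above both other lines for Oaf and below them for Triqk.

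For 5 higher genes the count may be shared with near copies or has no known product. Rps26-ps1, a transcribed pseudogene of a ribosomal protein, was at 4.85 CPM in mock and 105 in c11, with 19.6 in c15 and 20.4 in c22. Xlr3a, of the X-linked lymphocyte regulated family, was at 2.26 CPM in mock and 17.4 in c11, with 0.0758 in c15 and 0.306 in c22, and it has close copies beside it on the X chromosome. Gm14794, a processed pseudogene, was at 1.70 CPM in mock and 21.4 in c11, with 2.12 in c15 and 3.21 in c22. How reads with several matches were counted is also not given, so these 3 are uncertain. Ifi213, of the interferon-inducible PYHIN family, was at 37.2 CPM in c11, against 6.90 in c15, 2.60 in c22 and 12.3 in mock. Gm42047, a long noncoding RNA of chromosome 8, was at 122 CPM in mock and 319 in c11, with 2.27 in c15 and 1.76 in c22. It was the third farthest of all members, and mock was second to c11.

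On the lower side, the farthest gene was Hmgcll1, a lyase of ketone formation, at 44.2 CPM in c15 and 30.04 in c22, 0.0775 in c11 and 20.9 in mock. Its single count in c11 gave a ratio of c11 to c15 of 0.00175 (95% interval 4.4e-05 to 0.00980) and of c11 to c22 of 0.00258 (95% interval 6.5e-05 to 0.0144). Mock was beside the other lines. Hexa, the alpha subunit of the lysosomal enzyme hexosaminidase A, was at 60.5 CPM in c15 and 93.3 in c22, 3.64 in c11 and 49.3 in mock. It was thus 16.6-fold lower than in c15 and 25.6-fold lower than in c22. Tmem202, a membrane protein gene on the opposite strand (chr9:59518685-59539847, minus strand), overlaps the start of Hexa (chr9:59539540-59565109, plus strand) and was at 6.59 CPM in c15 and 9.02 in c22, 0.387 in c11 and 5.89 in mock. Both were low in c11 alone, while genes on either side were not. Arih1 was at 146 CPM in c11, against 173 in c15, 123.2 in c22 and 125 in mock. Parp6 was at 26.1 CPM in c11, against 23.5 in c15, 21.3 in c22 and 17.1 in mock. The Hexa promoter of RefSeq (GRCm38.p6) is printed because the low level covered a pair of genes whose starts overlap; a reverse CCAAT box, ATTGG, is in capitals.
Hexa promoter (chr9:59539290-59539589, plus strand): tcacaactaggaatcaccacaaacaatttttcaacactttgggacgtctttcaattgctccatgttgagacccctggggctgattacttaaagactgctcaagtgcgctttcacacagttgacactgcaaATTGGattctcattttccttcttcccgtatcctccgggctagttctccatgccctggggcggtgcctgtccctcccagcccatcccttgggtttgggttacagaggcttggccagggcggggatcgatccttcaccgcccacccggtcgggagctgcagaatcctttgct

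Bone genes were the lower members that shared a list. Dmp1, a matrix protein of osteocytes, was at 16.4 CPM in c15 and 9.33 in c22, 0.620 in c11 and 75.5 in mock, so mock was highest and c11 nearly without it. Dlx5, a homeobox factor of osteoblasts, was at 41.5 CPM in c15 and 45.9 in c22, 9.53 in c11 and 66.5 in mock. They were the 2 members of 18 kept osteoblast genes, with a median of -0.58. At 2-fold, 4 of the 18 were lower in c11 and none higher. Over all kept genes, 0.204% were lower at 4-fold and 1.26% at 2-fold. Dlx6, the neighbour and relative of Dlx5, was at 18.3 CPM in c15 and 33.9 in c22, 4.65 in c11 and 41.0 in mock. It was lowest in c11. The rest of the list was mixed. Phex, which limits phosphate loss, was at 19.101 CPM in c15 and 2.60 in c22, 1.08 in c11 and 13.2 in mock. Spp1, osteopontin, was at 399 CPM in c15 and 284 in c22, 164 in c11 and 365 in mock. Phex and Spp1 were lowest in c11. Ibsp, Dlx3 and Twist2, also on the list, were highest in c11 among the knockout lines. Ibsp was at 14.6 CPM in c15 and 39.1 in c22, 48.7 in c11 and 56.8 in mock. Dlx3 was at 4.02 CPM in c15 and 13.2 in c22, 19.05 in c11 and 33.8 in mock. Twist2 was at 27.7 CPM in c15 and 10.9 in c22, 28.3 in c11 and 7.59 in mock.

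The Dlx5 region on chromosome 6 held a further member, Dync1i1, a dynein chain, at 15.4 CPM in c15 and 10.01 in c22, 0.542 in c11 and 11.5 in mock. Between Dync1i1 and Dlx6, Slc25a13 was at 78.2 CPM in mock and 46.3 in c11, with 61.3 in c15 and 43.2 in c22. Sem1 was at 108 CPM in mock and 106 in c11, with 96.8 in c15 and 131 in c22. Neither was lowest in c11. The noncoding Dlx6os1 was at 36.7 CPM in mock and 2.01 in c11, with 3.71 in c15 and 9.10 in c22. Dlx6os2 was at 9.53 CPM in mock and 0.852 in c11, with 3.64 in c15 and 5.27 in c22. Both were lowest in c11. Beyond Dlx5, Sdhaf3 was level at 10.4 CPM in mock and 12.01 in c11, with 11.8 in c15 and 11.1 in c22. The low level in c11 thus lay at Dync1i1 and at the Dlx pair, with genes between them and beyond that were not lowest in c11.

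On chromosome 3, Miga1, a mitochondrial fusion protein, was at 35.0 CPM in c15 and 9.33 in c22, 0.542 in c11 and 29.3 in mock. Rabggtb, a subunit of the enzyme that lipidates RAB proteins, was at 117 CPM in c15 and 102 in c22, 24.4 in c11 and 83.4 in mock. They lie in 1 block, chr3:152178511-153944632, from Dnajb4 to Acadm. Of its 10 genes with at least 5 CPM, 9 were lower in c11 than in both other lines and 6 by at least 2-fold, with a median of -1.42. The ends of the block were set with the values known, so these counts describe a picked stretch. In the wider window of 25 kept genes around it, 15 were below both other lines and 4 above. Dnajb4, a chaperone, was at 57.0 CPM in c15 and 62.3 in c22, 16.3 in c11 and 52.8 in mock. Acadm, a dehydrogenase of fat oxidation, was at 122 CPM in c15 and 131 in c22, 32.0 in c11 and 115 in mock. Fubp1 was the exception at 270.4 CPM in c15 and 150.1 in c22, 215 in c11 and 342 in mock. For mock, the median of the 10 genes against c15 and c22 was -0.17.

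Igf2bp1, an RNA-binding protein of embryonic and tumour cells, was at 12.96 CPM in c15 and 45.7 in c22, 1.08 in c11 and 0.888 in mock. Mock was as low as c11. Rgs17, which switches off G proteins, was at 7.73 CPM in c15 and 9.86 in c22, 0.620 in c11 and 1.53 in mock. Mock was again low. Cebpa, a factor of fat and myeloid cells, was at 14.3 CPM in c15 and 17.6 in c22, 2.17 in c11 and 14.2 in mock. Adipocyte markers summed to 24.7 CPM in mock and 1.86 in c11, with 14.3 in c15 and 4.66 in c22, and macrophage markers to 945 CPM in mock and 304 in c11, with 424 in c15 and 534 in c22. Both sums were lowest in c11, but the adipocyte sum rests on Car3, and only 1 of its 8 markers was lowest there among the knockout lines. Their part in the level of Cebpa was not tested. Nbl1, a secreted BMP antagonist, was at 12.4 CPM in c15 and 14.1 in c22, 1.94 in c11 and 8.72 in mock. Dok5, an adaptor of receptor tyrosine kinases, was at 23.1 CPM in c15 and 14.4 in c22, 1.63 in c11 and 16.9 in mock. Ankrd29 had 1 count in c11 and was at 17.4 CPM in c15 and 3.36 in c22, 0.0775 in c11 and 10.7 in mock. Mock stood between c15 and c22, and the ratio of c11 to c15 was 0.00444 (95% interval 1.1e-04 to 0.0250). Lxn, an inhibitor of carboxypeptidases, was at 11.98 CPM in c15 and 4.89 in c22, 0.310 in c11 and 3.63 in mock. Galm, which converts forms of galactose, was at 3.41 CPM in c15 and 14.2 in c22, 0.232 in c11 and 5.81 in mock. The level in c11 rests on 3 counts. Sfmbt2, a Polycomb-group protein, was at 60.9 CPM in c15 and 17.6 in c22, 3.10 in c11 and 23.2 in mock. Mock was nearer to the other knockout lines than to c11 in these last 6 genes.

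The rest of the lower genes had distances between -2.01 and -2.54. Csdc2, an RNA-binding protein, was at 3.79 CPM in c15 and 12.8 in c22, 0.387 in c11 and 4.44 in mock. Dysf, which repairs muscle membranes, was at 22.2 CPM in c15 and 29.1 in c22, 4.57 in c11 and 18.1 in mock. Skeletal muscle markers summed to 157 CPM in mock and 8.52 in c11, with 4.02 in c15 and 32.6 in c22, so they were not lowest in c11. Insc, which orients dividing cells, was at 79.4 CPM in c15 and 34.7 in c22, 8.06 in c11 and 70.3 in mock. Uchl1, a ubiquitin hydrolase of neurons, was at 28.7 CPM in c15 and 28.3 in c22, 6.66 in c11 and 43.2 in mock. Mock was within the range of the other lines for Insc and above it for Uchl1. The long noncoding RNA gene Gm7967 was at 6.44 CPM in c15 and 14.7 in c22, 0.697 in c11 and 3.63 in mock. Gm536, another, was at 6.37 CPM in c15 and 7.64 in c22, 1.16 in c11 and 3.55 in mock.

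The genes beside the 4-fold mark were close in value. On the higher side, Ppargc1a and Cxcl12 were just inside with distances of 2.05 and 2.07, and Filip1l and Robo1 just outside with 1.97 and 1.97. Filip1l was at 11.5 CPM in mock and 71.7 in c11, with 17.96 in c15 and 17.4 in c22. On the lower side, Uchl1 and Insc were just inside with -2.01 and -2.04, and Acadm and Nid2, a basement membrane protein, just outside with -1.92 and -1.87. Nid2 was at 2.02 CPM in mock and 1.63 in c11, with 7.28 in c15 and 10.9 in c22.

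The mock library was not used by the rule, but its differences from c11 and from the other lines share those libraries with it. Line c11 was at least 4-fold above mock in 38 of the 66 higher genes, against 174 of all 11278 genes (1.54%). Mock was at least 4-fold above both c15 and c22 in 16 of the 66, against 40 of all genes (0.355%). These 16 were Tbx1, Frzb, Pcdh7, Ptn, Slit2, Armcx2, Fndc3c1, Brsk1, Mageh1, Robo2, Tspan7, Sox11, Selenoi, Kcnip3, 4932441J04Rik and Gm42047. Ptn, Armcx2, Fndc3c1 and Sox11 were in both counts, and 16 were in neither. On the log2 scale mock was nearer to c11 for 24 of the 66 and nearer to c15 and c22 for 42, and it exceeded c11 for Pcdh7 and 4932441J04Rik. The median difference of mock from the mean of c15 and c22 was 1.45, and that of c11 from mock 2.43.

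On the lower side mock sat with the other lines. Line c11 was at least 4-fold below mock in 16 of the 23 lower genes, against 136 of all genes (1.21%). Mock was at least 4-fold below both c15 and c22 in 2, Igf2bp1 and Rgs17, against 22 of all genes (0.195%), and in 5 genes neither held. Mock was nearer to c15 and c22 for 21 of the 23, with a median difference from them of -0.39, while c11 lay at a median of -2.72 from mock. Over all genes mock was nearer to c11 in 36.6%.

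**Figure D3:**
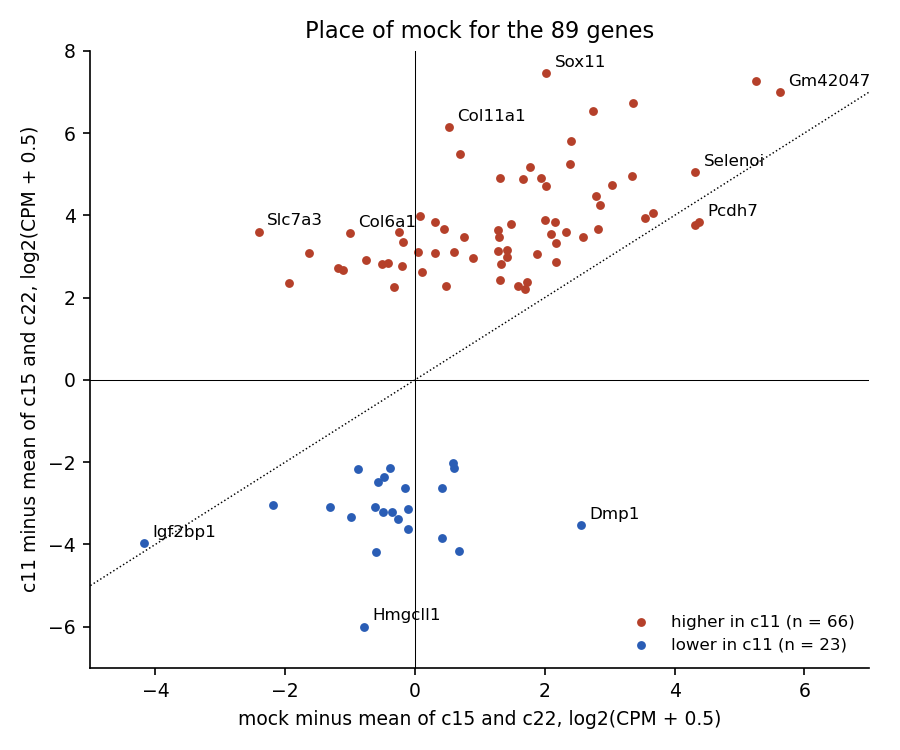
For each of the 89 genes, the x axis is mock and the y axis c11, each minus the mean of c15 and c22 in log2(CPM + 0.5); on the dotted line mock equals c11. Higher genes (red) spread from mock level with c15 and c22 to mock level with c11, as for Pcdh7 and Selenoi, while most lower genes (blue) stand near 0 on the x axis; Igf2bp1 lies beside the line, and Dmp1 is the gene with mock farthest above.

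The members did not agree on the other lines. Among the 66 higher genes, c15 and c22 lay within 2-fold of each other in 43 and at least 4-fold apart in 7; among the 23 lower genes, they lay within 2-fold in 14 and at least 4-fold apart in 1. Over all genes 82.8% lay within 2-fold. Among the higher genes c15 was above c22 in 35 and below it in 28. In 15 of the 66, both c15 and c22 were under 1 CPM, and in 3 (Sox11, Fndc3c1 and Meox1) both had no count. The mean of the level filter includes c11, so these 15 passed it only through c11. They enter the counts of higher members by list, annotation term and chromosome, whose kept genes c11 thus helped to set. In 11 of the 23 lower genes c11 was under 1 CPM. The median level of the higher genes was 8.64 CPM in mock and 35.0 in c11, with 2.54 in c15 and 1.80 in c22, and that of the lower genes 14.2 CPM in mock and 1.08 in c11, with 16.4 in c15 and 14.4 in c22.

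By position, members were most frequent on the X chromosome, where 10 of 344 kept genes (2.91%) were higher and none lower. These were Armcx2, Fndc3c1, Itm2a, Xlr3a, Mageh1, Tspan7, Nhsl2, Esx1, Slc7a3 and Gm14794. They lie along the chromosome rather than in 1 block, and the median difference of all kept X genes was 0.13, against 0.05 over all chromosomes. Some of these members, such as Fndc3c1 and Xlr3a, passed the level filter only through c11. Chromosome 16 came next with 8 of 378 (2.12%): Tbx1, St6gal1, Abi3bp, Epha3, Vgll3, Robo2, Cxadr and Hunk. Chromosome 5 had 8 higher of 749 (1.07%) and chromosome 8 had 7 of 628 (1.11%), while chromosome 13 had no member.

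**Figure D4:**
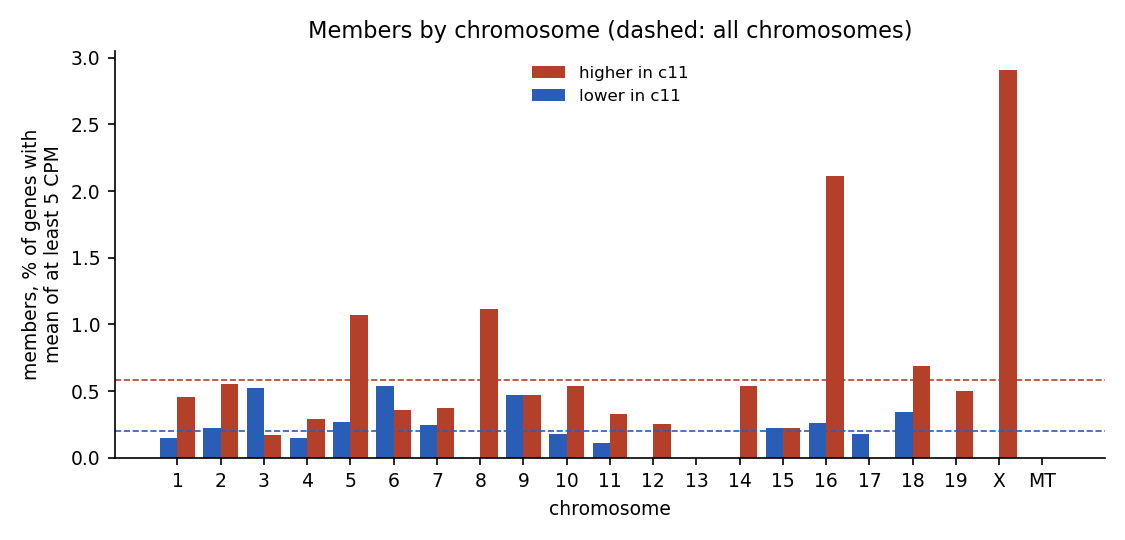
Members as a percentage of kept genes on each chromosome, higher in c11 (red) and lower in c11 (blue), with dashed lines at 0.585% and 0.204% for all chromosomes. The X chromosome (2.91%) and chromosome 16 (2.12%) stand above the rest on the higher side; chromosome 13 and the mitochondrial genome have none.

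Runs of neighbouring genes were read with a running median of 25 kept genes, and the window farthest from 0 was taken on each chromosome, so the windows are picked for their values. The highest window of any chromosome was on chromosome 2, from Madd to Accs, at 0.66 with 18 of 25 genes above both other lines and no member. The median of all kept genes was 0.37 on chromosome 2, 0.25 on chromosome 5 and 0.15 on chromosome 16. On the lower side it was -0.28 on chromosome 17 and -0.11 on chromosome 11. On chromosome 5, the window from Lcorl to Fam114a1 had a median of 0.59, with 20 of 25 genes above both other lines and 6 of them members: Slit2, Ppargc1a, Lgi2, 4932441J04Rik, Pcdh7 and Arap2. Without those 6 the median was 0.48. On chromosome 16, the window from Dcbld2 to Cxadr had 13 of 25 above both lines, with the members Epha3, Vgll3, Robo2 and Cxadr, and a median of 0.48, or 0.40 without them. The lowest window of any chromosome was on chromosome 3, from Gm10288 to Depdc1a, at -1.10 with 15 of 25 below both lines, and it held Miga1 and Rabggtb. Mock stood near c15 and c22 there, at -0.16. Next lowest were the windows of chromosome 4, from Mib2 to Samd11, at -0.74, and chromosome 11, from Cdk5r1 to Ccl6, at -0.72. Neither held a member. In all, 4 pairs of members lay within 500000 bases of each other: Col6a1 with Col6a2, Col4a1 with Col4a2, Pcdh7 with 4932441J04Rik, and Hexa with Tmem202. Of the members, 13 higher and 7 lower genes overlap another gene of at least 1 CPM, and their reads may be shared with it. Among them are Col4a1, Notch1, Strbp, Cxadr, Hmgcll1 and Lxn. Neither pairs nor overlaps were counted over all kept genes, so these counts say nothing particular about the members.

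The lists show where c11 did not differ from both other lines. Of 42 gene lists, 23 held no member, and 59 of the 89 members were in no list. Genes of the hypoxia response gave no member and no gene past 2-fold among 35 kept, with a median of -0.01. The 25 genes of glycolysis gave no member and 1 gene past 2-fold, Ldhb at 47.9 CPM in c11, against 9.32 in c15, 17.0 in c22 and 14.1 in mock, with a median of -0.18. The stress response (35 genes, median 0.23), p53 targets (18 genes, 0.03), MYC and ribosome genes (23 genes, -0.23), cholesterol synthesis (21 genes, -0.37) and the HOX cluster (13 genes, 0.11) had no gene past 2-fold. Among 42 cell cycle genes Cdkn1c was the only one.

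The interferon list, which does not hold the higher member Ifi213, had no member. Of its 38 kept genes, 7 were at least 2-fold lower in c11 and none higher, with a median of -0.82. Over all kept genes, 1.26% were at least 2-fold lower. Irf7, a factor that amplifies interferon, was at 15.2 CPM in mock and 16.3 in c11, with 33.9 in c15 and 43.0 in c22. Isg15, a ubiquitin-like protein, was at 5.01 CPM in mock and 4.80 in c11, with 14.4 in c15 and 14.4 in c22. Mock was as low as c11 for both, so c15 and c22 were the high libraries. Macrophage markers, given above, were lowest in c11 among the knockout lines for 13 of 15 genes but highest in mock; their part in the interferon genes was not tested. The list of 11 kept prostaglandin and retinoid genes had a median of -1.25, with 3 genes at least 2-fold lower and 2 higher. Ptgis, which makes prostacyclin, was at 122 CPM in mock and 25.6 in c11, with 102 in c15 and 69.0 in c22. Hpgd and Ptger3 also lay below the mean of c15 and c22, but c22 had no count of either. Hpgd was at 134 CPM in mock and 1.08 in c11, with 101 in c15. Ptger3 was at 42.2 CPM in mock and 2.01 in c11, with 72.2 in c15.

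**Figure D5:**
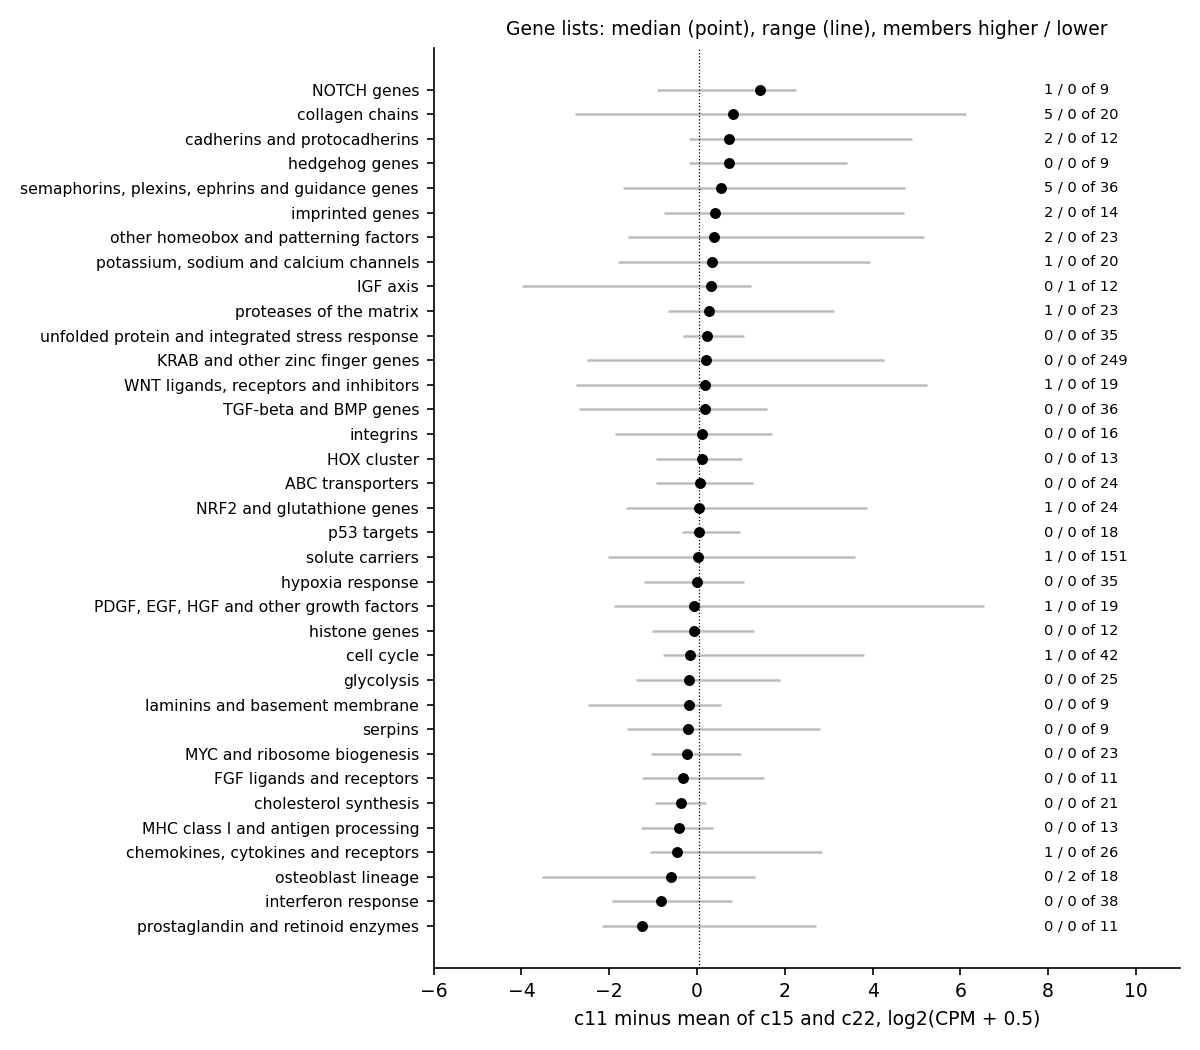
The 35 lists with at least 9 kept genes, by the difference of c11 from the mean of c15 and c22 in log2(CPM + 0.5): points are medians, lines run from the lowest to the highest gene, the dotted line is the median of all genes (0.05), and the numbers are members higher, lower and kept genes. NOTCH genes and collagens have the highest medians and prostaglandin and interferon genes the lowest, while hypoxia and glycolysis genes lie near 0.

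The RefSeq table held promoters for 58 of the 89 members, 44 higher and 14 lower. The median number of CG pairs in the 300 bases was 19 for the higher and 16 for the lower members, against 22 for 8556 kept genes and 7 for all 27025 promoters. Motifs were searched on both strands. The HIF core ACGTG was present in 7 of 44 higher promoters (15.9%) and 4 of 14 lower (28.6%), against 27.4% of kept genes and 19.7% of all. The SOX core ACAAT, which ends in the same letters as CCAAT, was in 13 of 44 (29.5%) and 3 of 14 (21.4%), against 19.3% and 31.6%. The CCAAT box was in 19 of 44 (43.2%) and 5 of 14 (35.7%), against 39.1% and 37.9%. A match is a match of letters in these windows and not a site.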

How the data were processed

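Poly(A) RNA of 4 tumours was sequenced from directional libraries, per the labels' protocols. The authors deposited 1 table of raw read counts for Ensembl genes. The submitters' processing notes name the build GRCm38 with HISAT2 2.1.0, featureCounts 1.6.3, SAMtools 1.9, Trimmomatic 0.38 and FastQC 0.11.7, and the sources used here do not give their settings. Symbols, coordinates and annotation terms are those of the deposited table.

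CPM were computed from column totals with Python 3.11.15, and the rule was applied to log2(CPM + 0.5). No replicate exists for a line, so no model was fitted. Counting intervals are exact at 95%, and the limit of a count of 0 is 3 counts. Alternatives changed the scaling (TMM of edgeR 4.0.16, median-of-ratios of DESeq2 1.42.0), the pseudocount, the level filter, the fold and the lines compared.

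Genes were named by a rule: the 15 farthest members on each side without predicted genes, clones and pseudogenes, up to 6 members of each list, the 2 genes nearest to the threshold inside and outside on each side, and Hif1a. The other members are named so that each is accounted for, except 1 that is counted but not reported here. Members, lists and rules were chosen with earlier results of these data known. Guidance genes were counted with Unc50, which the name pattern of that list also matched.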

Additional observations from a re-analysis of the deposited data

How the results depend on the processing

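The 66 higher and 23 lower genes were the same genes under TMM and under median-of-ratios scaling. With 0.1 CPM added there were 69 and 27, and with 1 CPM added 65 and 18, which lost Ppargc1a on the higher side and Galm, Csdc2, Gm536, Insc and Uchl1 on the lower. Among protein-coding genes 62 and 21 were left. The level filter set the higher count: 126 for means of 1 CPM or more and 137 with no filter, with 32 lower under either. For means of 10 CPM or more there were 42 and 12. The fold set both, with 185 and 142 at 2-fold and 31 and 6 at 8-fold. Compared with 1 other line only, leaving out c15 or c22, the counts ran from 165 to 213 on the higher side (165 without c15, 213 without c22) and from 79 to 111 on the lower (79 without c15, 111 without c22). No paired analysis was possible because the knockout columns carry no replicate number and each line is 1 library.

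With 1 library per line, line, tumour, host content and library cannot be told apart. Genes with few counts in c15 and c22, or in c11 on the lower side, have wide ratios. At this depth a count of 0 allows up to 0.242 CPM.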

Other observations

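Below the level filter, 2810 genes with a mean of 1 to 5 CPM held 60 genes at least 4-fold higher in c11 than in both other knockout lines and 9 lower. The mean includes c11, so a gene without counts in c15 and c22 entered through c11 alone. Adding 0.5 CPM also shrinks falls in this range, so the 60 and the 9 cannot be weighed against each other. Those named here were picked after their values were seen, and some are relatives or partners of genes described above. Sox6, a SOX factor that acts with Sox9 in cartilage, was at 1.29 CPM in mock and 8.52 in c11, with 0 in c15 and 0 in c22. Dcc, a netrin receptor, was at 0.565 CPM in mock and 6.43 in c11, with 0 in c15 and 0 in c22, and Bmp5, a bone morphogenetic protein, at 0.485 CPM in mock and 8.44 in c11, with 0.606 in c15 and 0.535 in c22. Piezo2, a mechanically gated channel, was at 0.242 CPM in mock and 9.68 in c11, with 0.0758 in c15 and 0 in c22. Asxl3, a Polycomb-associated protein, was at 0.0808 CPM in mock and 9.60 in c11, with 0.0758 in c15 and 0 in c22, and Foxp2, a forkhead factor, at 0.162 CPM in mock and 5.73 in c11, with 0.0758 in c15 and 0.0764 in c22. In each, c11 was the highest of the 4 libraries.

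On the lower side, Eid2, an inhibitor of differentiation, was at 5.01 CPM in mock and 0 in c11, with 6.14 in c15 and 7.87 in c22. Thrb, a thyroid hormone receptor, was at 9.45 CPM in mock and 0.310 in c11, with 4.24 in c15 and 4.43 in c22, and Cd55, which limits complement on the cell surface, at 12.3 CPM in mock and 0.620 in c11, with 8.64 in c15 and 5.66 in c22. Fut9, a fucosyltransferase, was at 17.5 CPM in mock and 0 in c11, with 2.50 in c15 and 7.03 in c22. All were lowest in c11.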
